A study of Mus musculus with 2 samples.

Results

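Laminins and integrins were described in cultured mouse ureters that lacked the FGF receptor genes Fgfr1 and Fgfr2 in their mesenchyme. All gene probes whose symbol names a laminin α, β or γ chain or an integrin α or β subunit were taken, which gave 37 genes on 51 probes, of 30011 genes on the array. These were 11 laminin genes and 26 integrin genes. The mutant ureters, called Fgfr1/2cDKO, were Tbx18(cre/+) and homozygous for the floxed alleles, Fgfr1(fl/fl) and Fgfr2(fl/fl). The control ureters are given as Fgfr1(fl/?);Fgfr2(fl/?), so the other allele is not stated and no Cre allele is listed for them. Ureters of both genotypes came from NMRI embryos at E15.5 and were grown for 6 days on membranes. Cre made from the Tbx18 locus acts in the mesenchyme around the ureteric epithelium, so loss of the receptors cannot be told apart from the presence of Cre at that locus.

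Total RNA was hybridised to 2 Agilent arrays of 60-base probes, and each array compared 1 mutant with 1 control RNA in different dyes. On array 1, labelled male, the mutant RNA was in Cy5. On array 2, labelled female, it was in Cy3, so replicate, sex label and dye orientation cannot be told apart. The labels state neither the number of embryos in an RNA sample nor separate litters. The p-values thus cover the spread among these RNA samples alone, and that spread may be technical. Between 69.3% and 77.4% of 39429 probes were well above background in the 4 RNA samples. All 6 smooth muscle markers and all 8 urothelial markers were well above background. Fgfr1 had a log2 ratio of mutant over control of -0.33 (limma adjusted p = 0.134), Fgfr2 rose by 0.56 (adjusted p = 0.0309), and Tbx18 had 0.19 (adjusted p = 0.320). The sources used here do not give the deleted parts of the receptor genes, so these probes do not check the genotype.

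Laminins are trimers of an α, a β and a γ chain and form the first sheet of a basement membrane, to which nidogens, type IV collagen and heparan sulphate proteoglycans attach. Integrins are receptors of an α and a β subunit that bind laminins, collagens or proteins with an RGD motif outside the cell and link them to actin or keratin inside. In the ureter a basement membrane separates the urothelium from the mesenchyme, and others surround smooth muscle cells, vessels, fat cells and Schwann cells.

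The probes shown next, 5′ to 3′, are that of the gene that passed the test and those that hold an integrin tail motif or a run of CA repeats. Positions are on the mm9 assembly that the files use. The Lama4 probe, chr10:38825794-38825853 on the plus strand, carries the one change that passed the test. It is in capitals throughout because it is open in a single reading frame of 20 codons.
Lama4: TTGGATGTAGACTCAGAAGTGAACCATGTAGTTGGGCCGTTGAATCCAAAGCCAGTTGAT

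The Itgb1 probe, chr8:131250081-131255976 on the plus strand, stretches over an intron and encodes both NPxY motifs of the β1 tail, where talin and kindlin bind. Capitals mark the codons of these motifs. The Itga2 probe, chr13:115626714-115626773 on the minus strand, encodes GFFKR, the motif next to the membrane in integrin α tails, with its codons in capitals.
Itgb1: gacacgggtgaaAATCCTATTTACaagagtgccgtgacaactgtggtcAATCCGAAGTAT
Itga2: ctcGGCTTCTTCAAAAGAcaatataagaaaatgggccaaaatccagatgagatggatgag

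The brightest probe of Itgam, chr7:135261755-135261814 on the plus strand, opens with a run of 10 CA repeats, here in capitals in its first 30 bases. Such a run stood in 22 of 39429 probes (0.0558%), and in no other probe of a laminin or integrin gene.
Itgam: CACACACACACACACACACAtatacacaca

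Of the 37 genes, 34 could be tested, all 11 laminins and 23 integrins. The other 3, each with 1 probe, were not well above background in either genotype. They were Itga2b, the platelet αIIb subunit, Itgae, the αE subunit of lymphocytes in epithelia, and Itgb8, which with αv activates TGF-β. A gene passed the test at an adjusted p below 0.05 over all 22070 genes tested, as 3.79% of all genes did (1.76% higher and 2.03% lower in mutants). Among the 34 laminin and integrin genes 1 passed, which was lower, a share of 2.94%. With an adjusted p below 0.1 there were 5, against 8.64% of all genes. With an unadjusted p below 0.05 there were 14 (5 higher and 9 lower), a share of 41.2% against 22.5% of all genes. In 18 genes (52.9%) the mutant and control RNA samples did not overlap, 9 with the mutants above and 9 with the mutants below, against 45.1% of all genes. The median log2 ratio was 0.0061, beside -0.02 over all genes tested. Laminins had a median of 0.11 and integrins one of -0.09. With median centring, which shifted the median of all genes to -0.14, both were below 0, at -0.09 for laminins and -0.22 for integrins.

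**Figure D1:**
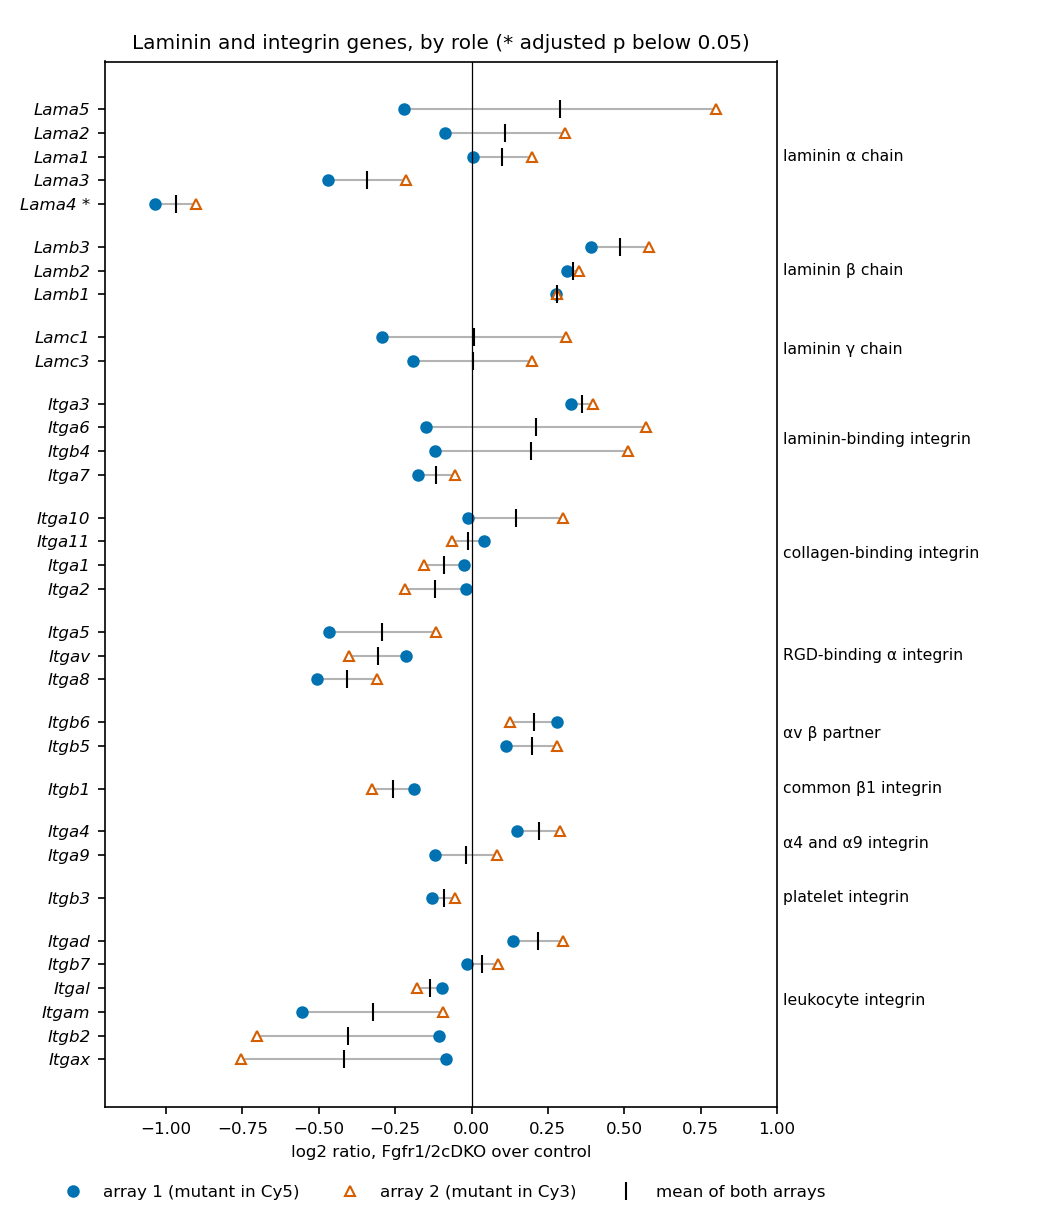
Log2 ratio of Fgfr1/2cDKO over control (horizontal axis) for 33 of the 34 laminin and integrin genes tested, grouped by role, with array 1 as filled circles, array 2 as open triangles and the mean as a bar. Lama4, starred, lies near -1 on both arrays, while Lama5, Itga6, Itgb4 and Lamc1 lie on opposite sides of 0.

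Lama4, the α4 chain of laminins in the basement membranes of vessels, fat and muscle, fell in the mutants. Its log2 signal was 12.39 and 12.39 in the mutant RNA samples, against 13.42 and 13.29 in the control RNA samples. The mutant samples were almost equal, and both lay far below both controls. The ratio was -1.04 on array 1 and -0.90 on array 2, a mean of -0.97 ± 0.10 (SD, n = 2), or 1.96-fold lower (limma adjusted p = 0.0110). Of all genes tested, 0.285% had a ratio as low. Lama4 was the only laminin or integrin gene past 1.5-fold. The call was lost with the scanner's processed signals (-0.99, adjusted p = 0.0641), with median centring (-1.18, adjusted p = 0.121) and with the RNA samples taken as unpaired (adjusted p = 0.147).

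Markers of vessels and fat, whose cells make the α4 chain, were lower as well. Of 6 endothelial markers 4 fell and none rose, with a median log2 ratio of -0.56, and all 6 were well above background. Their summed signal was 3713 and 3628 in mutants, against 5358 and 4863 in controls. All 4 adipocyte markers fell, and their sum was 17382 and 4783 in mutants against 37191 and 34209 in controls. Of 6 Schwann cell and neuron markers 3 fell, the neuronal Dbh, Stmn2 and Prph, with a summed signal over the list of 56288 and 62487 in mutants against 41826 and 54665 in controls. Ckm fell among 3 skeletal muscle markers and Dpt among 6 fibroblast markers. Smooth muscle markers, with 0 of 6 called by limma and 0 at an unadjusted p below 0.05, had a median of -0.0070. The part of these cells in the Lama4 result was not tested, and fewer cells of a type cannot be told apart from less RNA per cell in such samples.

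The other α chains did not pass. Lama3, the epithelial α3 chain, had a log2 signal of 10.15 and 10.20 in mutants, against 10.62 and 10.42 in controls, so that the genotypes did not overlap. Its ratio was -0.34 ± 0.18 (SD, n = 2; limma adjusted p = 0.130), while its other probe had -0.33 on array 1 and 0.13 on array 2. Lama5, the α5 chain of most mature epithelial basement membranes, had 14.34 and 15.12 in mutants and 14.57 and 14.32 in controls. The mutant sample of array 2 was the high one and that of array 1 lay between the controls, with a mean ratio of 0.29 ± 0.72 (SD, n = 2; adjusted p = 0.440). Lama1, an early embryonic α chain, and Lama2, the α chain of muscle and peripheral nerve, had ratios of 0.10 and 0.11, with overlapping samples. The other Lama2 probe had 0.06 on array 1 and 0.26 on array 2, with both mutant samples above both controls.

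All 3 β chains had higher signals in the mutant than in the control RNA on both arrays, though none passed the test. Lamb3, the β3 chain of the hemidesmosome laminin, had a log2 signal of 11.85 and 12.31 in mutants, against 11.46 and 11.73 in controls. Its ratio of 0.49 ± 0.13 (SD, n = 2) was the highest of the 34 genes and just missed the threshold (limma adjusted p = 0.050006). Lamb2, the β2 chain of mature vascular, muscle and glomerular basement membranes, had 12.34 and 12.61 in mutants, against 12.03 and 12.25 in controls. Both mutant samples of either gene exceeded both controls. The Lamb2 ratio was 0.33 ± 0.03 (SD, n = 2; adjusted p = 0.118). Lamb1, the widespread β1 chain, had 0.28 ± 0.0037 (SD, n = 2; adjusted p = 0.167). With median centring the median of the β chains was 0.12 and 1 of them had a mean below 0.

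Lamc1, the γ1 chain of most laminins, had -0.29 on array 1 and 0.31 on array 2, and Lamc3 had -0.19 and 0.20. The means of Lamc1 and Lamc3 were 0.0083 and 0.0039.

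**Figure D2:**
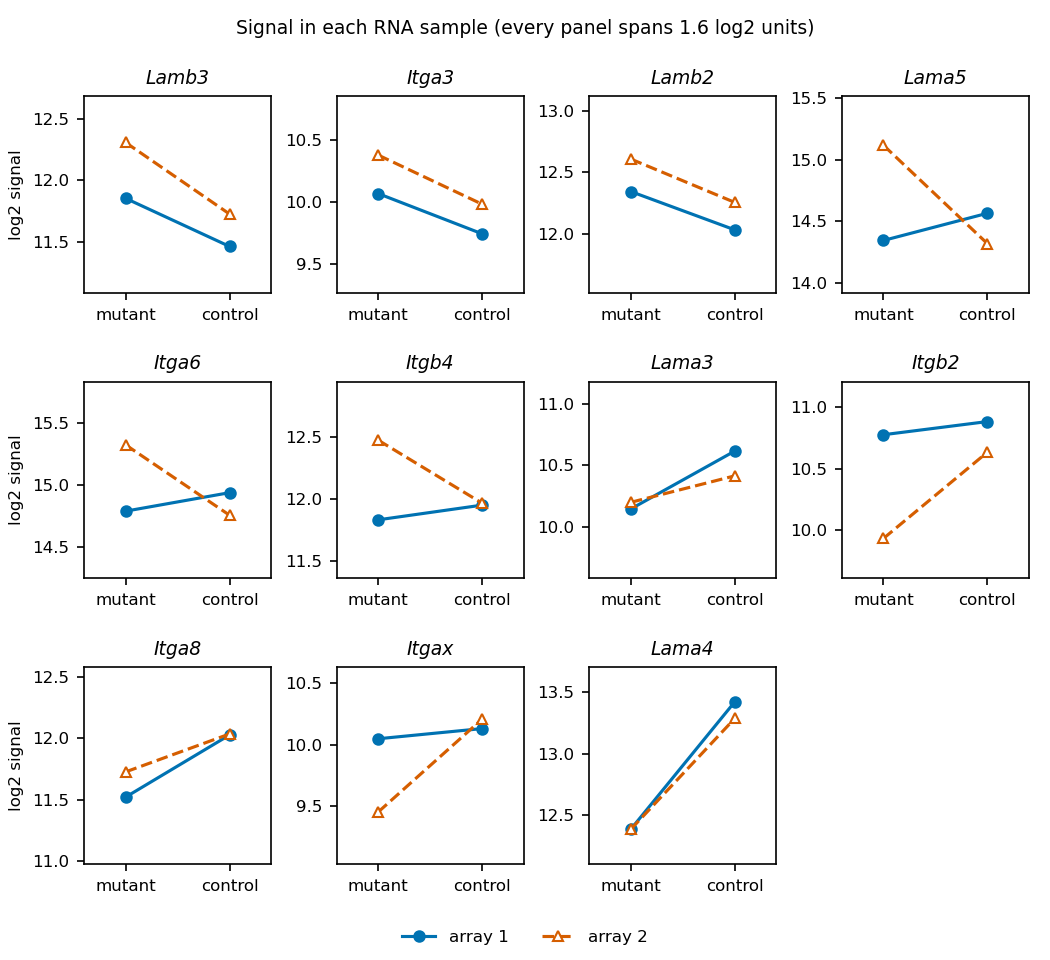
Log2 signal (vertical axis) of 11 laminin and integrin genes in each RNA sample, mutant left of control, with samples of array 1 joined by solid and those of array 2 by dashed lines. Every panel spans the same range of log2 units. Both mutant points of Lama4 lie far below the control points, those of Lamb3, Itga3 and Lamb2 lie above them, and the lines of Lama5 and Itga6 cross.

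Among the genes of a hemidesmosome, the anchor between keratin and basement membrane, the 4 described here did not share a direction, and none passed the test. Lamb3 had ratios above 0 on both arrays and Lama3, a chain it assembles with, ratios below 0 on both. Itga6 and Itgb4, which form the α6β4 receptor, were split by array. Itga6 had a log2 signal of 14.79 and 15.33 in mutants and 14.94 and 14.75 in controls, with a ratio of 0.21 ± 0.51 (SD, n = 2; limma adjusted p = 0.480). Itgb4 had 11.83 and 12.48 in mutants and 11.95 and 11.97 in controls, with a ratio of 0.20 ± 0.45 (SD, n = 2; adjusted p = 0.479). In both genes the mutant sample of array 1 lay below its own control and that of array 2 above both controls. The other Itga6 probe had 0.04 and 0.09. Lamb3 did pass with a stricter filter on dim probes, with the mean over a gene's probes and with an intensity trend in the variance (adjusted p from 0.0240 to 0.0385). These were 3 of 10 fits. It did not pass with the authors' table (limma adjusted p = 0.104) or processed signals (adjusted p = 0.124). Nor did it with median centring (0.28, adjusted p = 0.200) or with unpaired RNA samples (adjusted p = 0.435).

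Of 6 further hemidesmosome genes, 0 passed in limma and 3 had an unadjusted p below 0.05, beside 3.79% and 22.5% of all genes. The median ratio of the 6 was -0.20. The basal keratins Krt5 and Krt14 had ratios of -0.46 (adjusted p = 0.0833) and -0.43 (adjusted p = 0.137), and Col17a1, a transmembrane collagen of the hemidesmosome, had -0.25 (adjusted p = 0.208). Samples overlapped for Krt5 and Col17a1. Plec had 0.25, with both mutant samples above both controls, while Cd151 had 0.03 and Dst -0.15. With the mean over a gene's probes the median of the list was -0.10, with 3 genes above and 3 below 0. The median of the urothelial markers lay above 0. Of 8 such markers 3 rose and none fell, with a median of 0.40, and their summed signal was 316825 and 377642 in mutants against 252322 and 262342 in controls. Their part in the values of Lamb3 was not tested.

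Among the receptors of laminin, Itga3, the α3 subunit of epithelial cells, had the highest ratio of any integrin. Its log2 signal was 10.07 and 10.38 in mutants, against 9.74 and 9.98 in controls. Both mutant samples lay above both controls, with a ratio of 0.36 ± 0.05 (SD, n = 2; limma adjusted p = 0.0953). Itga7, the laminin receptor of muscle, had -0.11. Itga1, Itga2, Itga10 and Itga11, the 4 α subunits of the collagen receptors, had ratios between -0.12 and 0.14. Itga1 had no single direction, as 1 probe was lower in both mutant samples (-0.09) and the other higher in both (0.14).

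The tested α subunits that bind RGD motifs were lower in mutant than in control RNA on both arrays by their brightest probes. All 3 were without overlap, and none passed the test. Itga8, the mesenchymal α8 subunit whose ligand nephronectin guides kidney development, had a log2 signal of 11.52 and 11.73 in mutants, against 12.03 and 12.04 in controls. The ratio was -0.41 ± 0.14 (SD, n = 2; limma adjusted p = 0.0806). Itga5, the main fibronectin receptor subunit, had -0.29 (adjusted p = 0.203), and Itgav, the αv subunit that binds vitronectin and latent TGF-β, had -0.31 (adjusted p = 0.151). The other Itgav probe had 0.15 on array 1 and -0.20 on array 2, with overlapping samples. The means of these 3 genes stayed below 0 under each of the 7 other ways of computing the values. Itga8 passed with an intensity trend in the variance (adjusted p = 0.0493).

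Their β partners were divided. Itgb1, the β1 subunit shared by most of these receptors, had a log2 signal of 13.58 and 13.31 in mutants, against 13.76 and 13.63 in controls. Its 2 probes, 1 of them the tail probe shown above, both had ratios below 0 on both arrays, and the gene had -0.26 (limma adjusted p = 0.204). Itgb5 and Itgb6, which pair with αv, both had 0.20, with the mutant samples above the controls (adjusted p = 0.323 and 0.304). With median centring 1 of them had a mean below 0. Itgb6 marks epithelia and its αvβ6 dimer activates TGF-β. Itga4, a receptor of fibronectin and VCAM1, had 0.22 (adjusted p = 0.267), and Itga9, which binds tenascin and osteopontin, had -0.02. Itgb3, of platelets and of αvβ3, had -0.09.

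Of the 6 leukocyte integrins tested, Itgal, Itgam, Itgax and Itgb2 had ratios below 0 on both arrays by their brightest probes, Itgad had one above 0 on both, and none passed. Itgax, the CD11c subunit of dendritic cells and macrophages, had a log2 signal of 10.05 and 9.45 in mutants, against 10.13 and 10.21 in controls. Itgb2, the β2 subunit that all CD11 chains share, had 10.78 and 9.93 in mutants, against 10.88 and 10.64 in controls. In both genes the mutant sample of array 2 was the low one and that of array 1 lay close to its control. The genotypes overlapped for Itgb2 and not for Itgax. The ratios were -0.42 ± 0.48 for Itgax and -0.40 ± 0.42 for Itgb2 (SD, n = 2; limma adjusted p = 0.164 and 0.156).

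Itgam, the CD11b subunit of macrophages and neutrophils, had -0.55 and -0.09 by the probe with the CA repeat. That probe had a log2 signal of 15.89 and 15.78 in mutants, against 16.44 and 15.88 in controls. The other Itgam probes lay far lower, between 7.29 and 8.77. Whether the bright probe reports Itgam was not tested. Of the other Itgam probes, 1 had a mean of -0.20, below 0 on both arrays, and 1 had 0.43 on array 1 and -0.39 on array 2. Itgal, the CD11a subunit of lymphocytes, had a mean of -0.14 and by its other tested probe 0.04, Itgb7, of gut-homing lymphocytes, had 0.04, and Itgad had 0.22. Macrophage and leukocyte markers had a median of -0.22 on array 1 and -0.58 on array 2, and 2 of 8 fell (Fcer1g and C1qa) while none rose. Their summed signal was 77928 and 51537 in mutants, against 91847 and 71408 in controls. Of the 8 markers, 6 were below 0 on both arrays and 0 above 0 on both. Ptprc, the pan-leukocyte marker, was well above background with a ratio of -0.42 (limma adjusted p = 0.0700) and overlapping samples. Laptm5 had 0.98 on array 1 and -0.05 on array 2, and Adgre1 had 0.04 and -0.71. The part of these cells in the leukocyte integrin values was not tested.

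**Figure D3:**
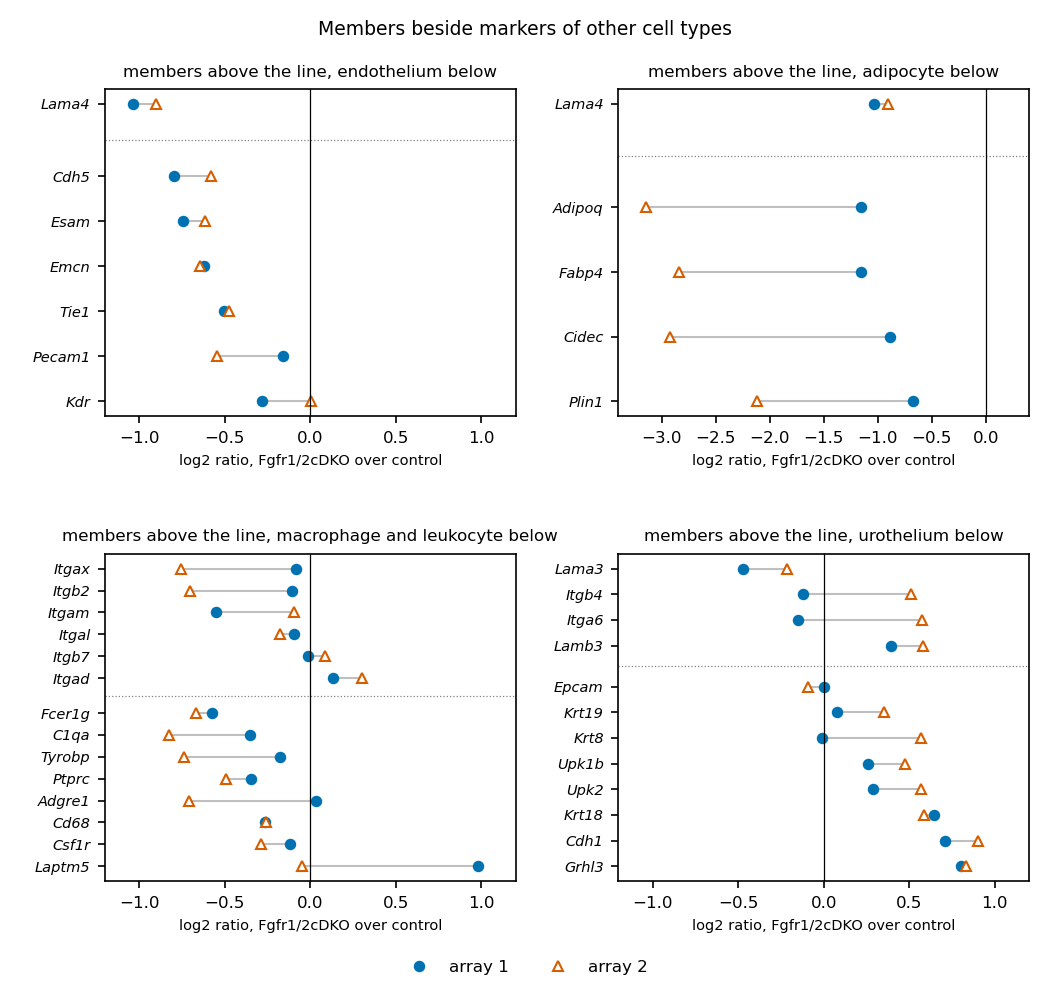
Log2 ratio of Fgfr1/2cDKO over control on array 1 (filled circles) and array 2 (open triangles) for laminin and integrin genes, above the dotted line in each panel, and for markers of endothelium, adipocytes, leukocytes and urothelium below it. The adipocyte panel has a wider axis. Lama4 and all 4 adipocyte markers lie left of 0 on both arrays, and Itgax and Itgb2 are lower on array 2, as are most leukocyte markers.

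The proteins that laminins assemble with were described next. Of 21 basement membrane genes tested, 3 rose in the mutants and none fell, with a median ratio of 0.33 and 14 of them above 0 on both arrays. Over all genes tested 1.76% rose and 2.03% fell, and 66.5% had the same sign on both arrays, in either direction. Agrn, the proteoglycan agrin that links laminin to dystroglycan, had a log2 signal of 15.07 and 15.35 in mutants, against 14.39 and 14.82 in controls, a ratio of 0.60 (limma adjusted p = 0.0261). Bcam, a laminin α5 receptor, had 0.53 (adjusted p = 0.0386), and Col18a1, the source of endostatin, had 0.51 (adjusted p = 0.0442). Each of the 3 had mutant samples above both controls. Dag1, the laminin receptor dystroglycan, had 0.45 (adjusted p = 0.0546). Nid1, Col4a1 and Col4a2, core parts of nearly all basement membranes, had 0.08, 0.09 and 0.12. Npnt, the nephronectin ligand of α8, had 0.18 (adjusted p = 0.345). All 3 calls were lost with processed signals, median centring, the authors' table and the RNA samples taken as unpaired. With median centring the list's median was 0.11, with 11 genes above and 5 below 0 on both arrays. Of other cells, urothelial markers rose as given above, as did 3 of 4 kidney tubule markers (sum 3030 and 1213 in mutants, against 652 and 661 in controls) and 2 of 4 mesothelial markers (sum 6651 and 7322 in mutants, against 4707 and 5249 in controls). Their part in this list was not tested.

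Of 27 ligands of integrins outside basement membranes, 1 rose and 2 fell, beside 1.76% higher and 2.03% lower over all genes. Icam2, a ligand of αLβ2 on endothelium, had a log2 signal of 11.24 and 11.17 in mutants, against 12.21 and 12.19 in controls. It had a ratio of -0.997 ± 0.04 (SD, n = 2; limma adjusted p = 0.0099), next to the endothelial markers that also fell. Postn, the matrix protein periostin that binds αv integrins, fell by 0.57 (adjusted p = 0.0295). Cdh1, E-cadherin, which is a ligand of αEβ7 and also one of the urothelial markers, rose by 0.80 (adjusted p = 0.0156). With processed signals, median centring or unpaired RNA samples none of the 3 was called, and with the authors' table Icam2 alone was. Among the ligands not called, Col1a2 (0.58, limma adjusted p = 0.0637), Tnc (0.43, adjusted p = 0.0832) and Col1a1 (0.44, adjusted p = 0.103) had the smallest p. Each had both mutant samples above both controls. Col1a2 passed with the stricter filter on dim probes (adjusted p = 0.0456). The RGD ligands did not pass: fibronectin (Fn1) had 0.35, vitronectin (Vtn) -0.36 and osteopontin (Spp1) -0.44. Fn1 had 0.54 on array 1 and 0.16 on array 2, Vtn -0.45 and -0.26, and Spp1 -0.03 and -0.85. The SD of Spp1 between arrays, 0.58, exceeded the size of its mean. Vtn passed with a normexp offset of 0 (-0.70, adjusted p = 0.0159) and with an intensity trend in the variance (adjusted p = 0.0204). Its log2 signal was near the floor, at 6.62 and 6.51 in mutants against 7.07 and 6.78 in controls. The untested Itga2b lay between 6.47 and 6.66.

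Of 39 genes of focal adhesions and integrin activation, none rose and 1 fell, beside 1.76% higher and 2.03% lower over all genes. The 1 that fell was Rsu1, which binds the PINCH adaptor of the integrin-linked kinase complex. It had a log2 signal of 13.88 and 13.69 in mutants against 14.44 and 14.12 in controls. Its ratio was -0.50 ± 0.09 (SD, n = 2; limma adjusted p = 0.0452), a call lost under the same 4 alternatives as those of Agrn. Parvg, a leukocyte parvin, had -0.43 (adjusted p = 0.0600), and Tln1, talin, which binds the NPxY motif of β tails, had 0.39 (adjusted p = 0.0881). The kinase genes Ilk and Ptk2, of which Ptk2 encodes FAK, had ratios of -0.08 and 0.06. The median of this list was -0.03, beside -0.02 for all genes.

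**Figure D4:**
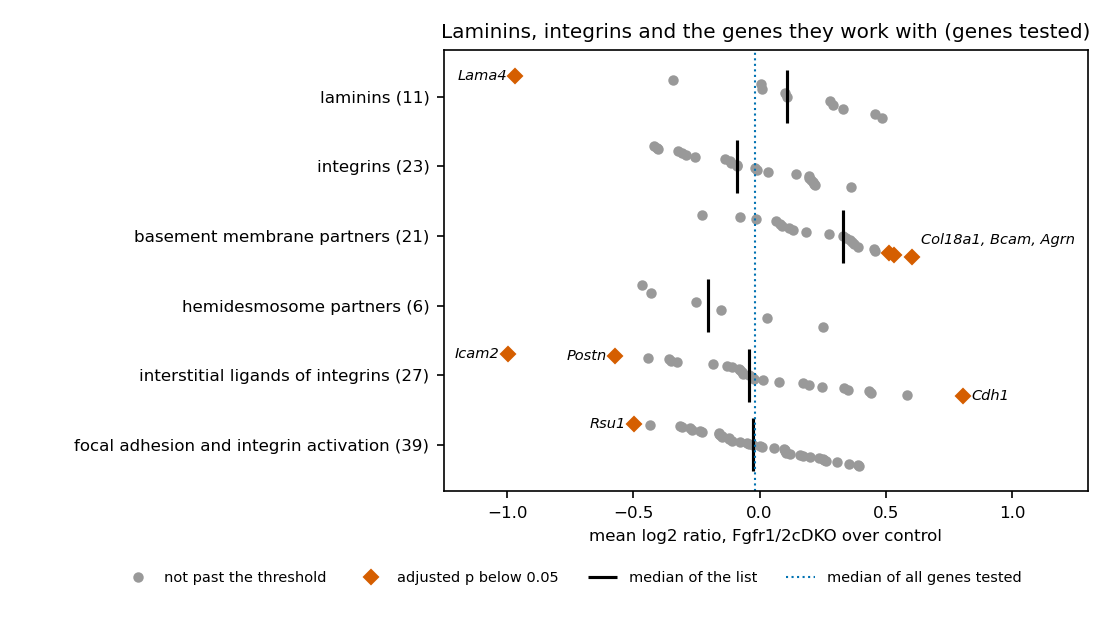
Mean log2 ratio of Fgfr1/2cDKO over control (horizontal axis) of each gene tested, for laminins, integrins and 4 lists of partners, with genes past the threshold as named diamonds, list medians as black bars and the median of all genes as a dotted line. The basement membrane list is centred at 0.33 with 3 genes called, and focal adhesion genes are centred near 0.

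The arrays differed for a share of these genes. Of the 34 genes 24 had the same sign on both arrays, 10 higher and 14 lower, a share of 70.6% beside 66.5% of all genes. The other 10 had opposite signs. Turned to Cy5 over Cy3, 9 of these were below 0 on both arrays (26.5% of the 34, against 19.1% of all genes) and 1 was above (2.94%, against 14.5%). The median of the 34 was -0.09 on array 1 and 0.11 on array 2. On array 2 alone Lama4, Lama5, Itgax and Itgb2 were past 1.5-fold, and on array 1 alone Lama4. Lama5, Itga6, Itgb4 and Lamc1 were among the 10 with opposite signs. Itgax, Itgb2 and Itgam had the same sign on both arrays, yet the SD between arrays exceeded the size of the mean.

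**Figure D5:**
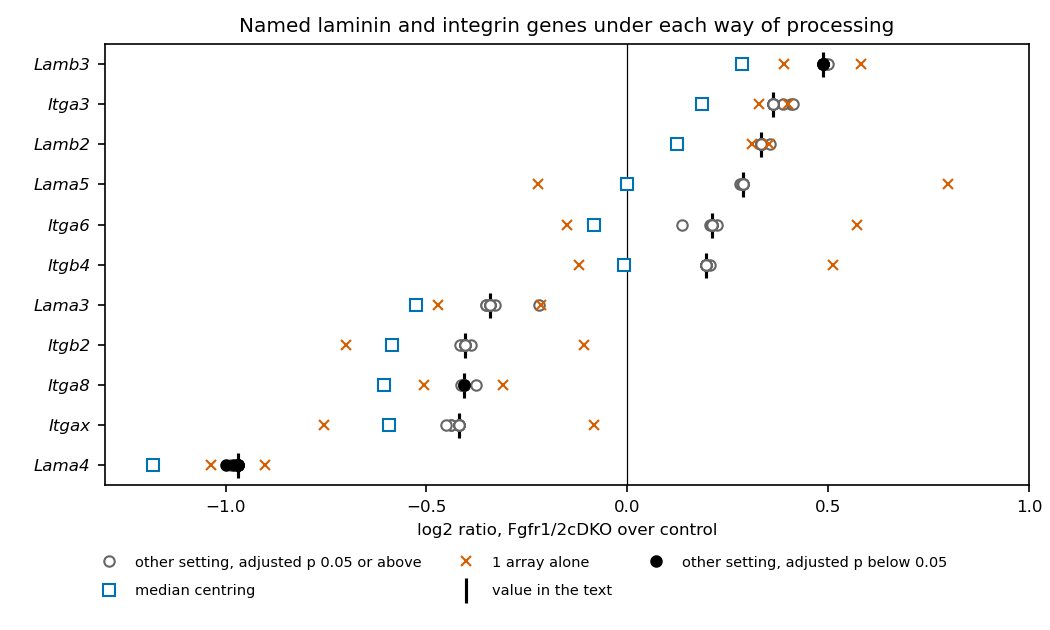
Log2 ratio of Fgfr1/2cDKO over control (horizontal axis) of 11 laminin and integrin genes as given in the text (bars), under other ways of processing (circles, filled where the adjusted p was below 0.05), with median centring (squares) and from 1 array alone (crosses). Lama4 stays between -1.18 and -0.90, whereas Lama5, Itga6 and Itgb4 have crosses on both sides of 0.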

How the data were processed

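Per the submitters' processing notes, Agilent Feature Extraction 10.7.3.1 produced the deposited intensity values, a mean signal and a median background for each spot. Per the file headers, that software also wrote processed intensity values (detrended, dye-normalised) and their log10 ratio, Cy5 over Cy3. The authors' deposited value table gives each probe a score that reads as a signed fold change, with no value between -1 and 1 and a median of 1 on each array. Set against the scanner ratios, its direction is mutant over control; its centring stays unknown.

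Signals were corrected by normexp (offset 50) and loess within arrays in limma 3.58.1 (R 4.3.3), with outlier spots left out (3.17% and 3.65%). Saturation affected 0 gene spots. Signals were averaged over the 4 spots of a probe, and the brightest probe stood for its gene. A probe had to exceed background clearly on both arrays in 1 genotype or more (28915 probes, 22070 genes). Of 39429 probes, 28328 were named by accession and 3400 by symbol through RefSeq, and 7701 kept the file's name; all 51 member probes kept their symbol. Ratios of mutant over control, oriented by the labelled dyes, were tested with lmFit and eBayes against 0, two-sided, with Benjamini-Hochberg adjustment over all genes (1 residual and 7.45 prior degrees of freedom). Levels per RNA sample are log2 signals after loess and Aquantile. RNA samples of 1 number share an array, which is the pairing. Both arrays lay on 1 slide and in 1 scan, so no such batch could be tested. The fit was tested on simulated data.

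Full values go to members past the threshold, the 5 highest and 5 lowest ratios and the hemidesmosome chains. Of each partner list, the called genes and at least the uncalled gene with the smallest p are named. Itgam's probes, Itgb1 and some partners with a known role here were added after their values were seen. A gene that this rule names is not reported here. The members and lists were chosen with earlier results of these data known. Alternatives covered background, normalisation, the authors' table, filter, probe rule, variance model, pairing, threshold and each array alone.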

Additional observations from a re-analysis of the deposited data

How the results depend on the processing

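The number of arrays limits the precision. The count of 836 called genes became 10 with processed signals, 170 with the authors' table, 1415 with an intensity trend, 1907 at an adjusted p below 0.1, and 3 with separate channels and no replicate block. With median centring 0 were called by limma (5584 at an unadjusted p below 0.05). For laminins and integrins (1 called) the count was 0 with processed signals (8 unadjusted), 0 with median centring (12) and 0 without the replicate block (6). It was 3 with the stricter filter, 3 with the mean over probes, 4 with the trend and 5 at the looser threshold. For the partner genes (7 called) it was 0 with processed signals (31 unadjusted), 0 with median centring (27), 0 without the replicate block (22), 1 with the authors' table, 11 with the stricter filter, 13 with the trend and 15 at the looser threshold. Left as Cy5 over Cy3, chosen after seeing the data, limma called 0 genes in all (77 unadjusted), 0 laminins and integrins (1 unadjusted) and 0 partners (0 unadjusted). Median centring moved the members' median to -0.17 and that of all genes to -0.14, and of the alternatives on both arrays it alone turned Itga6 (-0.0826), Itgb4 (-0.0079) and Lama5 (-3.2e-05) below 0. Lama4 was called in 7 of 10 fits. The call was lost with processed signals (-0.99), median centring (-1.18) and no replicate block (-0.97). Itgam by another probe had 0.0194, a choice made after seeing the data. With 1 array left out, genes past 1.5-fold numbered 721 to 898 (526 on both arrays), members 1 to 4 (1 on both) and partners 5 to 11 (3 on both), the members' median ran from -0.09 to 0.11, and Lama4 from -1.04 to -0.90. The causes of these changes were not tested.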
